A study of Mus musculus with 16 samples.

Results

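Collagen chain genes are described here in islets of *db/db* mice cultured with the small molecule adjudin or with its solvent DMSO. A gene was a member when its row was annotated as protein coding and its symbol had the form of a collagen alpha chain, Col followed by a type number, the letter a and a chain number. This gave 44 of the 54532 genes in the table, and 37 of the 44 had enough reads to be tested. Poly(A) RNA was sequenced from 16 samples, 8 with DMSO and 8 with 10 µmol/l adjudin. Both groups came from male BKS(D)-Leprdb/JOrlRj mice aged 12 to 13 weeks, whose leptin receptor is defective and which turn obese and diabetic, and no sample came from a nondiabetic mouse. Islets were freed from the pancreas with a collagenase, picked by hand and left to recover overnight, then kept in medium with 11 mmol/l glucose for 1 day of treatment. A sample held the islets of 1 to 2 mice. The samples carried a batch number from 1 to 8, each number occurring once with DMSO and once with adjudin, so that every comparison was made within batches.

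Collagens are secreted or membrane-bound proteins whose 3 alpha chains wind into a triple helix. Fibrillar collagens pack into the fibrils of connective tissue, type IV collagen builds the sheet of basement membranes, and the short-chain types VIII and X form open networks. In islets, basement membrane lies mainly around the capillaries and is supplied largely by endothelial cells, while fibrillar collagen of the capsule and interstitium comes from fibroblasts and stellate cells. Whole islets were sequenced, so fewer cells of a type and less RNA per cell cannot be told apart in any value given here.

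The 16 libraries held 24190102 to 34471164 counted reads. With batch in the model, p values rest on how much the difference between adjudin and DMSO varied from batch to batch. Levels are given as CPM, the count of a gene scaled to a common library size, or as CPM per kb of gene length where genes are compared with each other. As a check of the labelled tissue, *Ins2*, the main mouse insulin gene, stood at 24795 to 79170 CPM in DMSO. The same samples also held RNA of exocrine tissue. In DMSO, 9 acinar markers summed to 5321 to 13033 CPM, and 8 ductal markers to 2771 to 4145 CPM. Collagen levels are those of the whole preparation. Batch 4 stood apart, with the lowest *Ins2* level of the 8 DMSO samples and the highest summed collagen level in both treatments.

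Collagen transcripts made up 1.94% ± 0.491 (SD, n = 8) of all counts in DMSO and 1.83% ± 0.444 in adjudin. In DMSO the share ran from 1.38% to 3.02%. The fibrillar chains *Col1a1*, *Col3a1* and *Col1a2* alone carried 59.9% of the summed collagen CPM, and 10 members carried 88.7%. By class, fibrillar chains held 73.6% of the summed CPM, the type VI beaded filament chains 10.8%, the type IV basement membrane chains 6.99%, the multiplexins *Col15a1* and *Col18a1* 4.39%, the network-forming chains 1.89% and the FACIT chains, which sit on fibril surfaces, 1.80%.

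Per kb of gene length, *Col1a1* was highest in DMSO at 784 CPM per kb, followed by *Col3a1* at 365 and *Col1a2* at 233. Next came *Col6a1* at 127, *Col5a2* at 122, *Col4a1* at 109, *Col5a1* at 99.7 and *Col15a1* at 97.4 CPM per kb. The ranges of these 5 overlapped across batches, so their order is not settled by the spread. *Col8a1* was the highest network-forming chain at 40.9 CPM per kb, with *Col10a1* at 12.8 and *Col8a2* at 1.23. The type IV chains split into an abundant pair, *Col4a1* and *Col4a2* at 109 and 80.3 CPM per kb, and 4 minor chains, *Col4a5* at 1.67, *Col4a6* at 0.282, *Col4a4* at 0.0983 and *Col4a3* at 0.0580. *Col4a3* and *Col4a4* code for chains best known from the kidney filter.

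**Figure D1:**
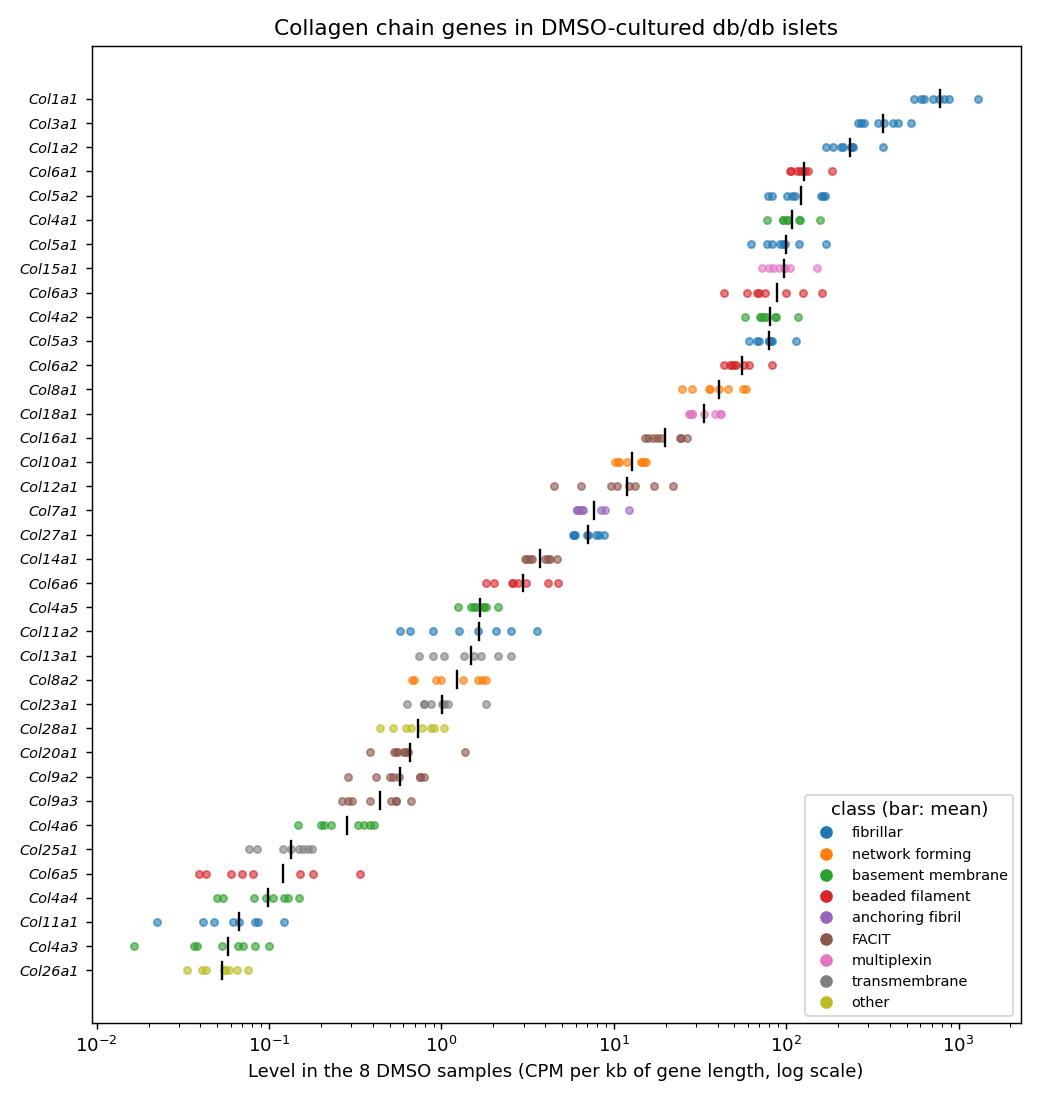
Level of the 37 tested collagen chain genes in the 8 DMSO samples, in CPM per kb of gene length on a log axis, with a point per sample, a black bar at the mean and colours for the class. Levels span from 0.0533 CPM per kb for *Col26a1* to 784 for *Col1a1*, and fibrillar chains hold the 3 highest places.

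The 7 members that were not tested were rare. *Col17a1*, a transmembrane chain of epithelial hemidesmosomes, had 147 counts in all 16 libraries together, and *Col22a1* had 170. *Col6a4* had 56 counts, *Col24a1* 52, the cartilage chain *Col2a1* 49 and *Col19a1* 40. *Col9a1*, also a cartilage chain, had 0 counts in every library, which over the 16 libraries together allows a level of up to 0.00658 CPM.

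Chains that share a trimer were compared as ratios within each sample, as a description without a test. The ratio of *Col4a1* to *Col4a2*, whose products assemble with each other, was the steadiest, at 1.35 ± 0.0172 per kb in DMSO (1.33 to 1.38) and 1.34 in adjudin. *Col4a1* and *Col4a2* lie head to head on opposite strands of chromosome 8 and overlap by 22 bases in the annotation. The ratio of *Col1a1* to *Col1a2*, the chains of type I collagen, was 3.37 ± 0.485 per kb in DMSO (2.59 to 3.79) and 3.35 in adjudin. That value depends on the length used, because the table gives *Col1a2* a gene length of 12426 bases against 6563 for *Col1a1*, and with coding lengths the ratio was 1.68. *Col6a1* to *Col6a2* stood at 2.32 ± 0.119 per kb in DMSO and 2.29 in adjudin, and at 1.23 in DMSO with coding lengths. The ratio of *Col6a3* to *Col6a1* per kb ranged from 0.375 to 0.976 across the DMSO samples.

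Levels of the members varied widely between batches. Batch accounted for a median of 88.6% of the variance of a member's log2 CPM (47.5% to 98.4%), and treatment for a median of 1.55%, at most 41.8% for *Col10a1*. Batch has more levels than treatment and takes a larger share even where neither has an effect. These shares therefore cannot be compared directly. *Col6a3*, the large chain of type VI collagen, ranged from 521 CPM in batch 7 to 1942 CPM in batch 4 within DMSO alone.

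With adjudin, 3 of the 37 tested members were downregulated (*Col10a1*, *Col8a1* and *Col3a1*) and 3 were upregulated (*Col6a6*, *Col13a1* and *Col18a1*), by edgeR at an adjusted p under 0.05. In the same samples 7 of 12 markers of fibroblasts and stellate cells were lower, with values given further on. That list was written with earlier results of these data known. Of all 16910 genes tested, 3.07% were lower and 2.17% were higher by the same rule. The median log2 fold change of the tested members was -0.020, with 19 below 0 and 18 above, beside 0.0032 for all genes. Lower in 8 of 8 batches were *Col3a1*, *Col8a1* and *Col10a1*, against 3.15% of all genes, and no member was higher in 8 of 8, as 2.22% of all genes were. At an unadjusted p under 0.05, 10 members were lower and 4 higher, against 10.9% and 10.1% of all genes. The DMSO and adjudin ranges overlapped for every tested member, as for all but 0.0177% of genes. With batch left out of the model no member passed by edgeR, with 0% of all genes lower and 0.00591% higher, and 1 member in each direction had an unadjusted p under 0.05. Leaving out batch 4 gave 3 lower and 2 higher (1.61% and 0.822% of all genes), and leaving out batch 5 gave 5 lower and 3 higher (2.52% and 1.47%). Lower members numbered 7 without the filter on low counts (2.18% of all genes), 7 with a correction for gene length (3.56%) and 5 with DESeq2 (3.85%). The edgeR fit without the filter tested 43 members and gave far smaller adjusted p values for nearly the same fold changes. For *Col10a1* it gave 1.5e-42 against 4.73e-04 with the filter, so its calls are not on the same footing.

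**Figure D2:**
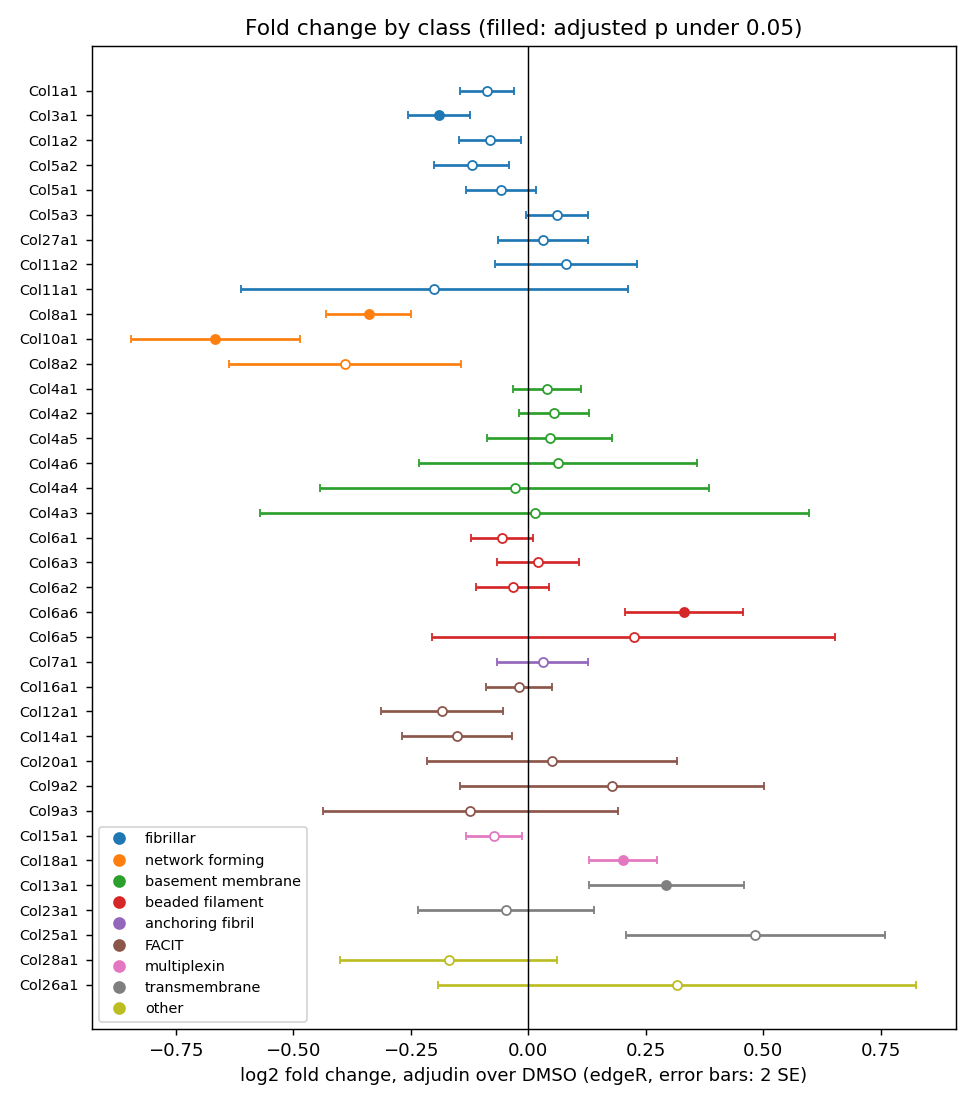
Log2 fold change of adjudin over DMSO for the 37 tested members, grouped and coloured by class, with error bars of 2 SE and filled points for an adjusted p under 0.05. All 3 network-forming chains lie below 0, from -0.67 to -0.34, while the 6 basement membrane chains lie between -0.029 and 0.064.

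Of the 3 network-forming chains 2 were downregulated with adjudin, *Col10a1* and *Col8a1*, and *Col8a2* did not pass. Their summed level, most of it from *Col8a1*, was 366 CPM ± 101 (SD, n = 8) in DMSO and 281 CPM ± 76.0 in adjudin, and the sum was lower with adjudin in 8 of 8 batches, by 0.37 ± 0.15 on the log2 scale on average.

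*Col10a1* codes for the type X chain, known from growing cartilage. It stood at 32.0 CPM in the lowest DMSO sample, 41.0 at the median and 48.3 in the highest, and at 12.5, 24.8 and 38.4 CPM with adjudin. Batch 1 with adjudin was the lowest of all samples, and the adjudin samples of batches 2, 3 and 4 lay within the DMSO range. *Col10a1* fell by 0.67 on the log2 scale (SE 0.090, adjusted p = 4.73e-04), a fall by 36.9%, and the batches ranged from -1.40 to -0.28. *Col10a1* lies wholly inside *Nt5dc1*, a gene of the opposite strand, over 7105 bases, and whether reads were counted by strand is not given in the sources used here. *Nt5dc1* stood at 15.5 CPM in DMSO and 14.4 in adjudin (log2 fold change -0.11, adjusted p = 0.242).

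*Col8a1* codes for the main chain of type VIII collagen, found in the walls of vessels and in the membrane beneath the corneal endothelium. Its level was 195 CPM in the lowest DMSO sample, 302 at the median and 459 in the highest, and 164, 236 and 381 CPM with adjudin. Batches 2 and 3 were highest in both treatments, and in batch 7 the pair was level, at 195.5 CPM with DMSO and 195.2 with adjudin. *Col8a1* fell by 0.34 on the log2 scale (SE 0.045, adjusted p = 4.36e-04), a fall by 21.0%. *Col8a2*, the partner chain, was far rarer, at 3.03, 5.24 and 8.16 CPM in DMSO and 2.99, 4.00 and 5.62 CPM in adjudin. It was lower in 6 of 8 batches and higher in batches 1 and 5, with a log2 fold change of -0.39 (SE 0.12, adjusted p = 0.0792). *Col8a2* passed without the filter on low counts and without batch 1 or batch 5. Per kb, *Col8a1* exceeded *Col8a2* by a ratio of 35.5 ± 10.0 in DMSO and 35.6 ± 7.53 in adjudin, and the ratio of *Col10a1* to *Col8a1* went from 0.328 ± 0.0636 to 0.257 ± 0.0507, lower in 7 of 8 batches. With coding lengths the DMSO ratios were 58.2 for *Col8a1* to *Col8a2* and 0.143 for *Col10a1* to *Col8a1*, so their size depends on the length used.

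The 250 bases before the annotated start are shown for the 3 network-forming chains and for *Col3a1*, the other chain that was lower, to let their promoters be read beside each other. They come from RefSeq on GRCm38.p6 and are written 5′ to 3′ on the strand of the gene. Capitals mark every match on either strand to the TATA box TATAAA, the CCAAT box, the GC box core GGGCGG, the AP-1 core TGANTCA and the RUNX core TGTGGT, and matches may overlap.
Col8a1: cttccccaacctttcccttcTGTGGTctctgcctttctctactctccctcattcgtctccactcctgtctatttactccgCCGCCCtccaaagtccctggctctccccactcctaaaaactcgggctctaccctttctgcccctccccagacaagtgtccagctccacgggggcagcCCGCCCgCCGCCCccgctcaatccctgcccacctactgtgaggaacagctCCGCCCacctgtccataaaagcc
Col8a2: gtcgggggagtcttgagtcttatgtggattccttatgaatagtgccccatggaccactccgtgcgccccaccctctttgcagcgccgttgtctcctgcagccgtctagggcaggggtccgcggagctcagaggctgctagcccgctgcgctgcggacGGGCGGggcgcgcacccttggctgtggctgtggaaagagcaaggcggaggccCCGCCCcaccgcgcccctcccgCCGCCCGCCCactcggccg
Col10a1: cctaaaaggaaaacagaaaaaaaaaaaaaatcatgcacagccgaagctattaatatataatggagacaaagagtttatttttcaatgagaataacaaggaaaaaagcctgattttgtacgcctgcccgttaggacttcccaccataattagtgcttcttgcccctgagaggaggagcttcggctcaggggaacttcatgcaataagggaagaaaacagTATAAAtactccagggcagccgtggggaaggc
Col3a1: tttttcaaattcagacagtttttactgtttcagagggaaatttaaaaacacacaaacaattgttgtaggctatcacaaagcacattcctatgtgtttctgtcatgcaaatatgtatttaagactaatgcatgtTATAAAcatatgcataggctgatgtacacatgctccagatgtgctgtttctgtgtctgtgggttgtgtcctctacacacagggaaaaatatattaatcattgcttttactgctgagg

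*Col8a1* (chr16:57754738-57754987, minus strand) and *Col8a2* (chr4:126286544-126286793, plus strand) each held 4 matches to GGGCGG and none to TATAAA, with a GC content of 60.8% and 70%. *Col8a1* had in addition 1 match to TGTGGT. *Col10a1* (chr10:34389731-34389980, plus strand) held no GGGCGG and a TATAAA that begins 32 bases before the start, at a GC content of 41.6%. *Col3a1* (chr1:45311288-45311537, plus strand) held a TATAAA 117 bases before the annotated start and had the lowest GC content among the members, 35.2%. Windows were found for 35 members, which have 38 starts. GGGCGG occurred in 57.9% of these windows against 32.7% of 32851 windows of all genes, TATAAA in 13.2% against 12.4%, CCAAT in 34.2% against 33.8%, TGANTCA in 2.63% against 6.75% and TGTGGT in 7.89% against 14.0%. No motif of this list was present in the windows of all 3 chains that were lower with adjudin.

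Among the fibrillar chains *Col3a1* alone passed the test. Their summed level was 14288 CPM ± 3517 in DMSO and 13224 CPM ± 3012 in adjudin, lower in 7 of 8 batches by 0.11 ± 0.081 on the log2 scale on average, with batch 5 the other way. Of 9 tested fibrillar chains 1 passed, and 4 were lower at an unadjusted p under 0.05, against 10.9% of all genes at that level. The median log2 fold change was -0.082.

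*Col3a1* codes for type III collagen, which runs with type I in vessels and hollow organs. It stood at 2550, 3471 and 5222 CPM in the lowest, median and highest DMSO sample and at 2115, 3049 and 4525 CPM in adjudin. Every batch was lower, with batch 5 nearly level and batch 2 furthest apart at -0.35. *Col3a1* fell by 0.19 on the log2 scale (SE 0.033, adjusted p = 0.0033), a fall by 12.3%. *Col1a1*, the main chain of type I collagen, stood at 3644, 4857 and 8544 CPM in DMSO and at 3541, 4597 and 7731 CPM in adjudin. It was lower in 7 of 8 batches, batch 5 being the exception, with a log2 fold change of -0.089 (SE 0.029, adjusted p = 0.0844). The ratio of *Col3a1* to *Col1a1* per kb was 0.486 ± 0.155 in DMSO and 0.451 ± 0.133 in adjudin and was lower in 8 of 8 batches, a difference that was not tested.

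*Col5a2*, a chain of the type V collagen that starts fibril assembly, was lower in 7 of 8 batches, at -0.12 on the log2 scale (adjusted p = 0.0876). *Col5a2* lies 24614 bases from *Col3a1* on chromosome 1, on the opposite strand. For *Col1a2* the difference was -0.082 (adjusted p = 0.167). *Col1a1* and *Col5a2* passed with DESeq2, without the filter on low counts and with the length correction, *Col1a2* with the length correction, and *Col5a2* also without batch 5. The interval of 2 SE around the fold change ran from -0.15 to -0.031 for *Col1a1* and from -0.15 to -0.015 for *Col1a2*. *Col5a1*, *Col5a3*, *Col27a1*, *Col11a2* and *Col11a1* had log2 fold changes from -0.20 for *Col11a1* to 0.080 for *Col11a2*, all with an adjusted p above 0.3.

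**Figure D3:**
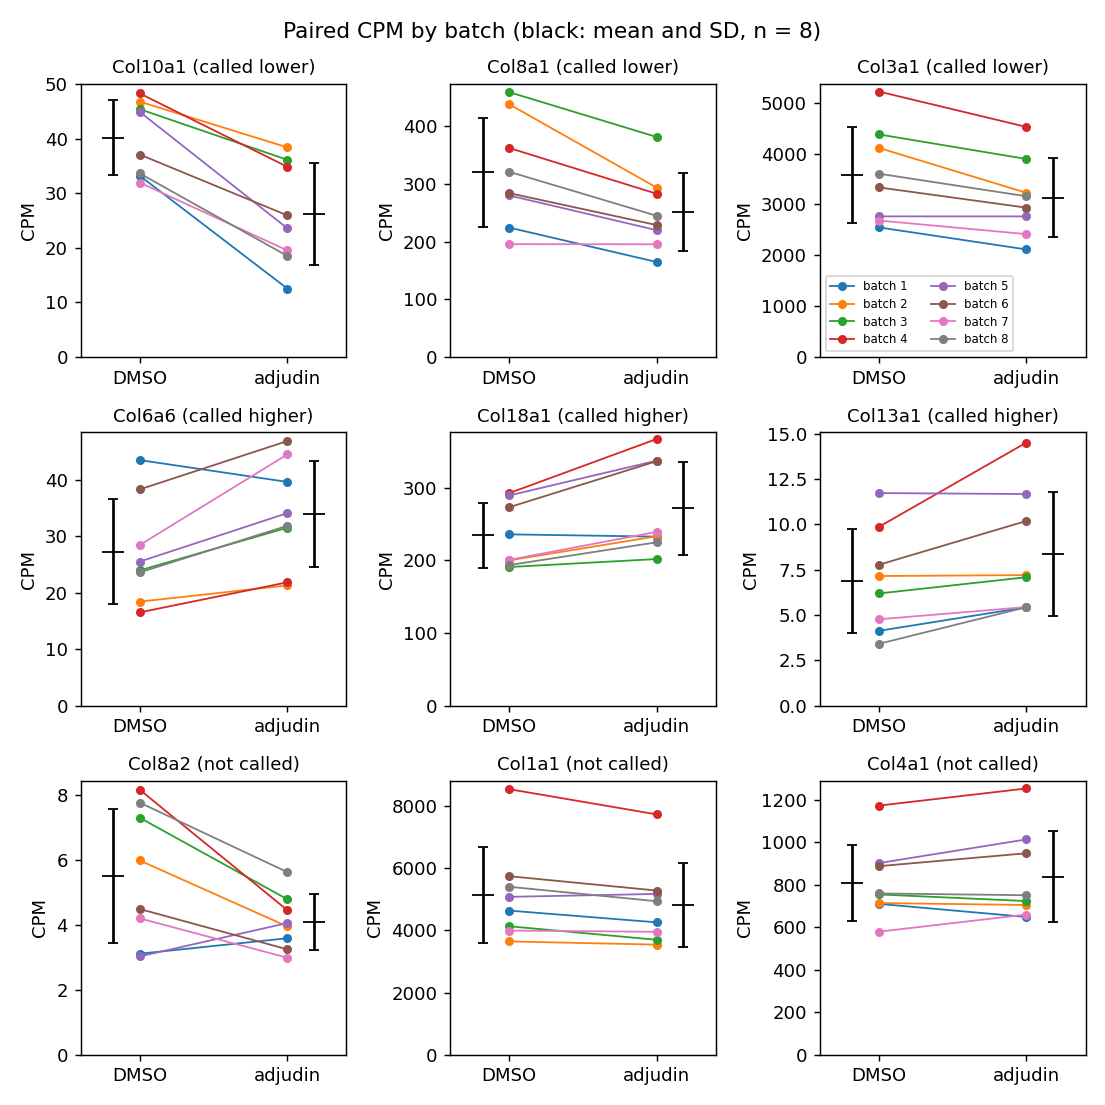
CPM by batch for the 6 collagen chain genes that passed and for *Col8a2*, *Col1a1* and *Col4a1*, with a line joining the DMSO and the adjudin sample of a batch and black marks for the mean and SD of 8 samples. The lines of *Col10a1* all slope down, those of *Col18a1* slope up in 7 of 8 batches, and those of *Col4a1* go both ways.

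No basement membrane chain passed, and none had an unadjusted p under 0.05 by edgeR or DESeq2. The 6 type IV chains summed to 1357 CPM ± 298 in DMSO and 1409 CPM ± 355 in adjudin, lower in 4 batches and higher in 4. *Col4a1* stood at 580, 758 and 1174 CPM in the lowest, median and highest DMSO sample and at 649, 738 and 1255 CPM in adjudin, with a log2 fold change of 0.040 (SE 0.036, adjusted p = 0.566). For *Col4a2* the log2 fold change was 0.055 (SE 0.037, adjusted p = 0.430). The intervals of 2 SE ran from -0.032 to 0.11 for *Col4a1* and from -0.019 to 0.13 for *Col4a2*, and for the rare *Col4a3* from -0.57 to 0.60. Within batches the abundant pair moved alike, at -0.13 and -0.13 in batch 1 and at 0.19 and 0.24 in batch 7 for *Col4a1* and *Col4a2*. The ratio of *Col4a1* to *Col1a1* per kb was 0.142 ± 0.0191 in DMSO and 0.154 ± 0.0174 in adjudin, higher in 7 of 8 batches and not tested.

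Of the multiplexins, which join basement membranes to the tissue around them, *Col18a1* passed and *Col15a1* did not. *Col18a1* codes for the precursor of endostatin, and stood at 191, 218 and 292 CPM in the lowest, median and highest DMSO sample and at 202, 236 and 367 CPM in adjudin. Batches 4, 5 and 6 were highest in both treatments, and batch 1 alone was slightly lower with adjudin. *Col18a1* rose by 0.20 on the log2 scale (SE 0.036, adjusted p = 0.00395). It overlaps *Slc19a1*, on the opposite strand, by 8825 bases, and that gene stood at 12.6 CPM in DMSO and 13.0 in adjudin (log2 fold change 0.041, adjusted p = 0.725). *Col15a1* stood at 463, 596 and 958 CPM in DMSO and at 466, 550 and 891 CPM in adjudin, with batch 4 far above the rest, and had a log2 fold change of -0.073 (SE 0.030, adjusted p = 0.168). The ratio of *Col18a1* to *Col15a1* per kb went from 0.350 ± 0.0573 to 0.421 ± 0.0547 and was higher in 8 of 8 batches, a difference that was not tested.

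Among the type VI chains, which form beaded filaments around cells, the 3 abundant ones did not pass. *Col6a1* stood at 458, 534 and 806 CPM in the lowest, median and highest DMSO sample and at 447, 519 and 762 CPM in adjudin, with a log2 fold change of -0.056 (SE 0.033, adjusted p = 0.354). *Col6a2* and *Col6a3* had log2 fold changes of -0.033 and 0.021. *Col6a6*, one of the chains that can take the place of *Col6a3* in the trimer, was much rarer, at 16.5, 24.7 and 43.5 CPM in DMSO and 21.3, 33.0 and 46.9 CPM in adjudin. It was higher in all batches but batch 1, which had the highest DMSO value. *Col6a6* rose by 0.33 on the log2 scale (SE 0.063, adjusted p = 0.00591). *Col6a5*, 27917 bases from *Col6a6* on chromosome 9, had a log2 fold change of 0.22 with an interval from -0.20 to 0.65.

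The transmembrane chains were rare, at a summed 14.8 CPM ± 4.48 in DMSO and 16.6 CPM ± 5.29 in adjudin, and the sum was higher in 8 of 8 batches. *Col13a1*, known from cell adhesion sites and the neuromuscular junction, stood at 3.42, 6.68 and 11.7 CPM in the lowest, median and highest DMSO sample and at 5.43, 7.15 and 14.5 CPM in adjudin. Batches 2 and 5 were nearly level and batch 8 was furthest apart. *Col13a1* rose by 0.29 on the log2 scale (SE 0.082, adjusted p = 0.0487), and it passed without batch 2 or without batch 5 but not when any of the other 6 was left out, with a largest adjusted p of 0.163 without batch 4. *Col25a1*, a chain known from nerve and from amyloid plaques, had a median of 1.83 CPM in DMSO and 2.36 CPM in adjudin, higher in 7 of 8 batches with a difference of 0.48 on the log2 scale (SE 0.14, adjusted p = 0.0521). *Col25a1* passed with scaling by library size only, without the filter on low counts, with a stricter filter and without batch 1 or batch 6. *Col23a1* had a log2 fold change of -0.047.

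Of the 6 tested FACIT chains none passed by edgeR or DESeq2. At an unadjusted p under 0.05 by edgeR 2 were lower, against 10.9% of all genes. *Col12a1*, found on fibrils of tendon and fascia, differed by -0.18 on the log2 scale (adjusted p = 0.111) and was higher in batches 5 and 7 only. It passed without batch 7, without the filter on low counts and with the length correction. For *Col14a1* the value was -0.15 (adjusted p = 0.144). The most abundant FACIT chain per kb, *Col16a1*, stood at 102, 123 and 179 CPM in the lowest, median and highest DMSO sample and at 105, 126 and 170 CPM in adjudin, with a log2 fold change of -0.020 (SE 0.035, adjusted p = 0.792).

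*Col7a1*, which forms the anchoring fibrils beneath epithelia, stood at 62.6, 67.9 and 126 CPM in the lowest, median and highest DMSO sample and at 60.4, 77.7 and 116 CPM in adjudin (log2 fold change 0.031, SE 0.048, adjusted p = 0.768), lower in 4 batches and higher in 4. *Col28a1* stood at 2.17, 3.54 and 5.07 CPM in DMSO and 2.48, 3.05 and 4.10 CPM in adjudin (log2 fold change -0.17, SE 0.12, adjusted p = 0.434). For both genes the groups overlapped over most of their range.

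**Figure D4:**
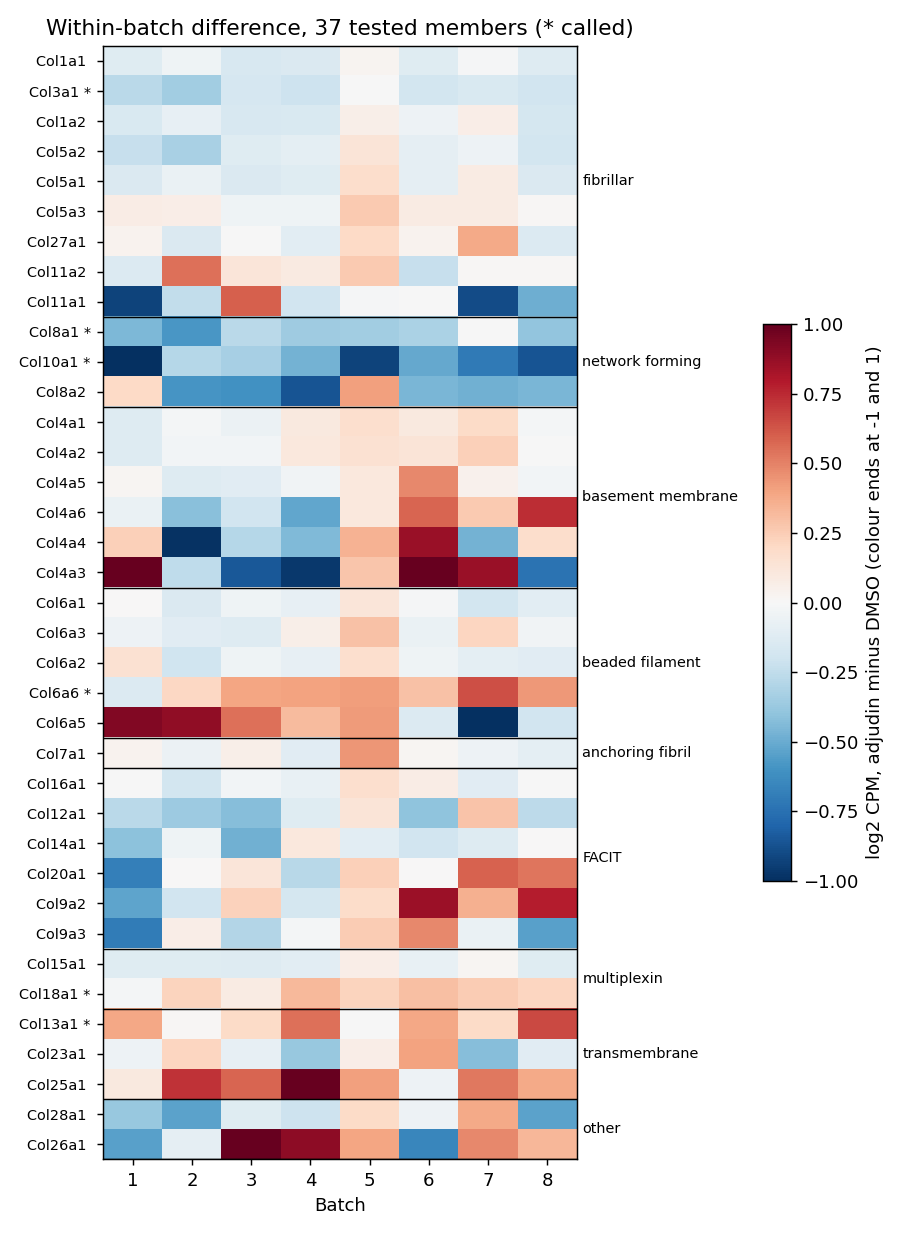
Difference in log2 CPM between the adjudin and the DMSO sample of each batch for the 37 tested members, in rows by class, with blue for lower and red for higher with adjudin, colours ending at -1 and 1, and an asterisk for members that passed. In batch 5 *Col1a1*, *Col1a2*, *Col5a1* and *Col5a2* are higher, against the direction of most batches, while *Col10a1* and *Col8a1* are lower.

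The batches were not alike in how the collagens moved. Summed over all members, the level was lower with adjudin in 6 of 8 batches, by 0.16 on the log2 scale at most in batch 2, and higher in batch 5 by 0.085 and in batch 7 by 0.0047. In batch 5 the basement membrane chains were higher by 0.16, the beaded filament chains by 0.24 and the fibrillar chains by 0.055, and the network-forming chains were lower, at -0.41. In batch 1 the basement membrane chains stood at -0.13 and the fibrillar chains at -0.16.

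The genes that modify, fold, export, process and bind collagen chains were counted by the same rule. By that rule 3.07% of all tested genes were lower and 2.17% higher, and 8215 of 16910 had a log2 fold change below 0. Of 19 genes for chain modification and folding 7 were downregulated and none was upregulated, with a median log2 fold change of -0.12, 18 of the 19 below 0. *Plod2*, the lysyl hydroxylase of the telopeptides, fell by 0.26 on the log2 scale (adjusted p = 3.54e-04), *Fkbp10*, a prolyl isomerase that acts with it, by 0.22 (adjusted p = 8.61e-04) and *Serpinh1*, the collagen chaperone, by 0.19 (adjusted p = 0.00129). These 3 were lower in 8 of 8 batches, and *Serpinh1* stood at 1220 CPM in DMSO and 1066 CPM in adjudin on average. Of 13 tested genes for procollagen processing and crosslinking 8 were downregulated and none was upregulated (median -0.17). They included the lysyl oxidases *Lox* (-0.26, adjusted p = 0.00194), *Loxl3* (-0.26, adjusted p = 7.38e-04) and *Loxl1* (-0.24, adjusted p = 7.60e-04) and the collagen-binding *Sparc* (-0.13, adjusted p = 0.0248). Leaving out batch 3 or batch 8 reduced these 8 to 5, and the share of all genes that were lower to 1.77% and 1.67%. *Lox* was at 231, 378 and 658 CPM in the lowest, median and highest DMSO sample, with a median of 321 CPM in adjudin.

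Of 6 genes for the export of procollagen from the endoplasmic reticulum none passed by edgeR or DESeq2, with 2 lower and 1 higher at an unadjusted p under 0.05 by edgeR. *Mia3*, the receptor that loads procollagen into transport carriers, stood at 0.076 on the log2 scale (adjusted p = 0.169). None of 16 laminin, nidogen, perlecan and other basement membrane partner genes passed by edgeR, where 3 were lower and 1 was higher at an unadjusted p under 0.05, and 1 was higher with DESeq2. Their median log2 fold change was -0.0029, and *Lamc1*, the common laminin gamma chain, had -0.083 (adjusted p = 0.152). For both lists the unadjusted counts stand beside 10.9% of all genes lower and 10.1% higher by edgeR. Of 11 tested collagen receptors 1 was upregulated, the kinase *Ddr2* (0.17, adjusted p = 0.0402), and 1 downregulated, the leukocyte receptor *Lair1* (-0.43, adjusted p = 0.0218). The *Ddr2* call was lost when batch 1, 2, 4, 5 or 7 was left out and the *Lair1* call when batch 2, 4 or 8 was. *Itgb1*, the beta chain of the collagen-binding integrins, had -0.083 (adjusted p = 0.114), and the platelet receptor *Gp6* had 0 counts in every library.

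**Figure D5:**
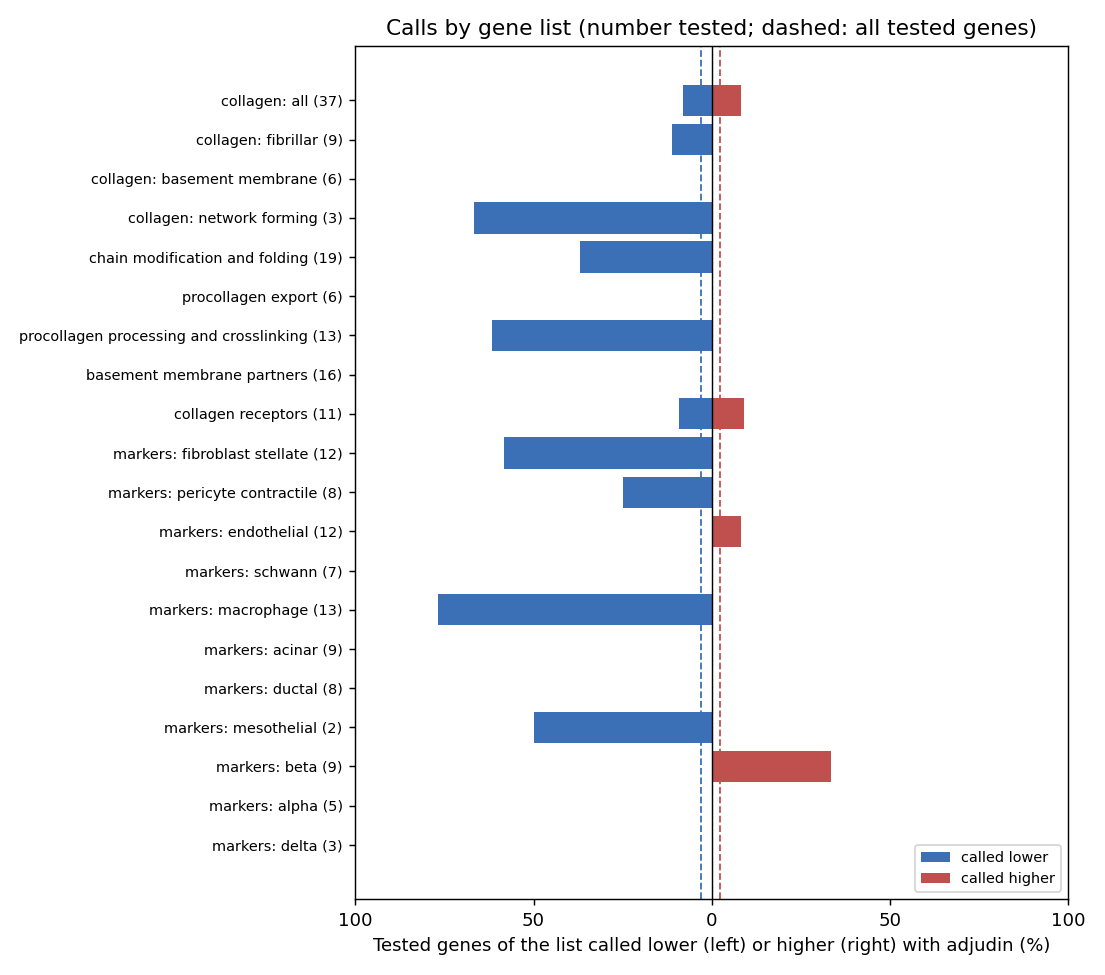
Share of the tested genes of each list that passed as lower (left) or higher (right) with adjudin, in percent, with the number tested in brackets and dashed lines at the 3.07% and 2.17% of all tested genes. Folding and crosslinking genes and markers of fibroblasts and macrophages have bars to the left only, and basement membrane chains and partners have none.

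Markers of the cells that can make collagen were counted in the same samples, beside 3.07% of all tested genes lower and 2.17% higher. Of 12 fibroblast and stellate cell markers 7 were downregulated and none was upregulated (median log2 fold change -0.18), among them *Thy1* (-0.31, adjusted p = 1.40e-04), *Mfap5* (-0.31, adjusted p = 3.46e-04) and *Mfap4* (-0.41, adjusted p = 5.92e-04). All 12 had a log2 fold change below 0, as did 8215 of all 16910 genes tested. Their summed level was 1086 to 2548 CPM in DMSO and 1063 to 2419 CPM in adjudin, lower in 7 of 8 batches, and none of these markers was at 0 in all samples. *Pdgfrb*, a receptor of the same cells, differed by -0.047 (adjusted p = 0.429). Of 8 pericyte and contractile markers 2 were downregulated, *Acta2* (-0.29, adjusted p = 1.14e-04) and *Rgs5* (-0.35, adjusted p = 0.0279). The count was 1 without batch 2, 3, 5 or 7 and with DESeq2. In those fits, in that order, 1.92%, 1.77%, 2.52%, 2.57% and 3.85% of all genes were lower. The summed level of the list was 433 to 777 CPM in DMSO and 381 to 712 CPM in adjudin. Of 12 endothelial markers 1 was upregulated, *Flt1* (0.19, adjusted p = 0.0137), a call that was lost without batch 4. Their median log2 fold change was 0.067, with 11 of the 12 above 0, as were 8695 of all 16910 genes tested. At an unadjusted p under 0.05, 4 were higher and none lower, against 10.1% and 10.9% of all genes. Their summed level was 290 to 850 CPM in DMSO and 338 to 945 CPM in adjudin, lower in 4 batches and higher in 4. The part of these cell markers in the collagen results was not tested.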

How the data were processed

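RNA-seq of 16 islet samples was used, 8 with DMSO and 8 with adjudin, grouped by their labels. The authors sequenced paired-end reads of 150 nt and, per the submitters' processing notes, used HISAT2 2.0.5 on mm10 (GRCm38), and featureCounts 1.5.0-p3 for the raw counts they deposited. Strandedness and annotation release are not stated in the sources used, and the table also holds gene lengths and coordinates. The authors name DESeq2 without a model formula.

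The counts were analysed in R 4.3.3 with edgeR 4.0.16: filterByExpr, TMM scaling, the quasi-likelihood test with batch and treatment as terms, and Benjamini-Hochberg adjustment over all 16910 genes tested. Standard errors were taken as the size of the fold change (log2) divided by the root of F, and log2 CPM within batches used a prior count of 2. Same-numbered samples deviated together (correlation 0.371 to 0.690), the pairing coming from the batch numbers in the labels. No 2 samples of a group agreed within sampling noise. Coding lengths came from the GENCODE annotation and promoter windows from RefSeq. The test was also run on simulated counts, whose outcome is not given here and does not show how reliable the single calls are.

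Members and lists were chosen with earlier results of these data known. Full values are given for members that passed and for the highest member per kb of each class, shorter ones for members with an unadjusted p under 0.05, and of each list the 3 smallest p among those that passed plus its highest gene per kb. Some genes that this rule selects were left out of the text. *Lox* levels, *Col4a3*, *Col6a5* and other members outside this rule were named after their values were seen. Alternatives were DESeq2 1.42.0, no batch term, other scaling and filters, a length correction and each batch left out.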

Additional observations from a re-analysis of the deposited data

Results flagged for a closer look

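Batch 4 held the highest value, with a gap to the next sample that was large against the range of its group, for several of the collagen values of the report. Of 48 groups examined 13 were flagged. Such a gap arises by chance in about 5% of groups of normally distributed values, and CPM values need not be so distributed. The values also share their samples, so they are not independent signs. *Col1a1* stood at 8544 CPM in DMSO (next highest 5743) and 7731 CPM in adjudin (next 5280). *Col1a2* stood at 4517 CPM (next 3022) and 4068 CPM (next 2872). For *Col6a1* the values were 806 CPM (next 583) and 762 CPM (next 560), and for *Col15a1* 958 CPM (next 669) and 891 CPM (next 643). *Col7a1* was set apart in DMSO only, at 126 CPM (next 91.0). Summed over all members batch 4 reached 29950 CPM in DMSO (next 20645) and 27756 CPM in adjudin (next 19539), and summed over the fibrillar chains 22152 CPM (next 14765) and 19952 CPM (next 13713). Batch 4 was high in both treatments alike, and its part in these levels was not tested further.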

How the results depend on the processing

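The batch term carried the calls. With no replicate block, that is without the batch term, the members called lower and higher went from 3 and 3 to 0 and 0, and so did the calls for folding genes, crosslinking genes, receptors and fibroblast, pericyte, endothelial, macrophage, mesothelial and beta cell markers, each to 0. Members called lower numbered 7 without the filter on low counts, 5 with DESeq2 and 7 with the replicate block and length correction. When a batch was left out, members called lower numbered 3 to 5 and members called higher 2 to 3. Over all genes these fits called 1.61% to 3.1% lower and 0.822% to 3.23% higher. The fit without the filter gave far smaller adjusted p values for nearly the same fold changes, so its calls are not on the same footing. Other scaling gave 3 lower and 3 to 4 higher, beside 2.72% to 2.91% and 2.31% to 2.47% of all genes. *Col3a1*, *Col8a1*, *Col10a1*, *Col18a1* and *Col6a6* passed in 8 of 8 fits with a batch left out (largest adjusted p 0.0228, for *Col6a6*). *Col7a1* and *Col16a1*, which did not pass, changed sign: *Col7a1* to -0.0067 with the length correction and, over the fits with a batch left out, from -0.026 (without batch 5) to 0.056, and *Col16a1* from -0.045 to 0.0036 (without batch 2).

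With DESeq2, basement membrane partners, ductal and delta cell markers each had 1 gene higher, and pericyte markers 1 lower. Over all genes 3.29% were higher and 3.85% lower with DESeq2. With each batch left out, calls ranged from 5 to 8 for crosslinking genes (lower), 0 to 1 for export genes (higher), 0 to 1 for basement membrane partners in either direction, 0 to 1 for receptors in either direction, 1 to 3 for pericyte markers (lower), 0 to 3 for endothelial markers (higher), 0 to 2 for acinar markers (lower), 0 to 1 for ductal markers in either direction, 1 to 4 for beta cell markers (higher) and 0 to 1 for delta cell markers (higher). The DMSO ratio of *Col1a1* to *Col1a2* was 1.68 with coding lengths and 1.78 in plain CPM, and that of *Col4a1* to *Col4a2* 1.56 and 1.52. The causes of these shifts were not tested. Depth limits the rare chains, of which 7 could not be tested.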

Other observations

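Markers of other cells that an islet preparation can hold were counted by the same rule, beside 3.07% of all tested genes lower and 2.17% higher. Of 13 macrophage markers 10 were downregulated and none was upregulated (median log2 fold change -0.38), led by the complement genes *C1qb* (-0.48, adjusted p = 8.46e-05), *C1qc* (-0.44, adjusted p = 8.46e-05) and *C1qa* (-0.38, adjusted p = 1.56e-04), with the lysozyme gene *Lyz2* at -0.46 (adjusted p = 0.00211). Their summed level was 619 to 1251 CPM in DMSO and 593 to 855 CPM in adjudin, lower in 8 of 8 batches. Of 9 beta cell markers 3 were upregulated, *G6pc2* (0.16, adjusted p = 0.0128), *Pdx1* (0.16, adjusted p = 0.0193) and *Nkx6-1* (0.14, adjusted p = 0.0257), while *Ins2* differed by 0.049 (SE 0.038). Without batch 2, 3, 4 or 8 the count was 1. In those fits, in that order, 1.32%, 0.946%, 0.822% and 1.12% of all genes were higher.

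By edgeR no Schwann cell (7), acinar (9), ductal (8), alpha cell (5) or delta cell (3) marker passed, the numbers in brackets being those tested. Of the 2 tested mesothelial markers *Wt1* was downregulated (-0.62, adjusted p = 0.0137). At an unadjusted p under 0.05, 1 Schwann cell marker and 3 acinar markers were lower, 3 ductal markers were lower and 3 higher, and 2 delta cell markers were higher. Over all genes 10.9% were lower and 10.1% higher at that level. With DESeq2, 1 ductal and 1 delta cell marker were higher. Among the highest genes per kb of the acinar, ductal, alpha cell, delta cell and mesothelial lists, log2 fold changes were 0.0084 for *Ctrb1*, 0.12 for *Spp1*, 0.15 for *Gcg*, 0.13 for *Sst* and 0.059 for *Msln*. Their part in the collagen results was not tested.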
